A study of Mus musculus with 4 samples.

Results

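The genes described here are 6 Hox genes (Hoxa5, Hoxa7, Hoxa9, Hoxa10, Hoxb4 and Hoxb5) and 3 genes of their cofactors (Meis1, Pbx2 and Pbx3). They were chosen by symbol as Hox genes expressed in hematopoietic stem cells (HSCs) and their Meis and Pbx partners, with Meis1 included as a reported target of Gfi1b. All 9 were matched by their Ensembl identifier, among 37140 genes listed for all 4 libraries of the series. RNA was sequenced from flow-sorted C57Bl6 mouse bone marrow of tibiae, femora and humeri, with 1 library for each of 4 groups. The groups were HSCs (Lin- cKit+ Sca1+ CD48- CD150+) of Gfi1b WT mice, the same HSCs of Gfi1b KO mice, and CD41low CD9low HSCs of both genotypes. The results of the study name the first population CD41+/CD9+ HSCs, whereas its methods give no CD41 or CD9 gate for it. Whether it includes the CD41low CD9low HSCs therefore cannot be told. The sample titles name Gfi1 where the genotype label names Gfi1b, and the genotype label is followed here. The KO mice were Rosa-Cre Gfi1b fl/fl according to the methods of the study, with a Cre expressed from the ubiquitous Rosa26 locus rather than in HSCs alone. By the same methods the WT controls were Rosa-Cre Gfi1b wt/fl, so that they carried Cre and 1 floxed allele, whereas the text deposited with the data describes floxed mice with or without Cre. All mice had received tamoxifen, and the marrow of several mice per genotype was pooled before the sort, so that each value below is that of 1 pool. The age of the mice is not given in the sources used here.

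Hox genes encode homeodomain transcription factors that lie in 4 clusters, and the genes at one end of the Hoxa and Hoxb clusters are expressed in HSCs and shut off as blood cells mature. Hox proteins bind DNA together with proteins of the TALE homeodomain class: Pbx proteins bind beside them on a composite site, and Meis proteins bind Pbx and stabilize the complex. Hoxa9 with Meis1 is known for maintaining HSCs and for driving acute leukemia when both are overexpressed, and Gfi1, the paralog of Gfi1b and like it a zinc finger repressor, has been described to antagonize Hoxa9.

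Promoter sequences are shown for the members on which the comparisons below turn: Meis1 as the reported Gfi1b target, Hoxa7 and Hoxb4 for their KO/WT ratios, and Hoxa9 and Pbx2 for their difference between the populations. Each window runs from 250 bases before to 50 bases after a transcript start (RefSeq, GRCm38.p6) and is written 5′ to 3′ on the strand of the gene. Capitals mark AATC, the core of the DNA motif of Gfi1b, or GATT where it lies on the other strand. The windows are chr11:19018920-19019219 (reverse strand) for Meis1, chr6:52218524-52218823 (reverse) for Hoxa7, chr11:96318017-96318316 (forward) for Hoxb4, chr6:52227321-52227620 (reverse) for Hoxa9 and chr17:34592009-34592308 (forward) for Pbx2.
Meis1: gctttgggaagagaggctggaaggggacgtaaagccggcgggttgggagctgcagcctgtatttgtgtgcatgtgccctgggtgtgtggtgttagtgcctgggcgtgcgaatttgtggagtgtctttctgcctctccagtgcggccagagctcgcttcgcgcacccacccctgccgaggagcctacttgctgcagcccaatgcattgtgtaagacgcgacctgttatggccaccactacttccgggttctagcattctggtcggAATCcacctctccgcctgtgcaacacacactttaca
Hoxa7: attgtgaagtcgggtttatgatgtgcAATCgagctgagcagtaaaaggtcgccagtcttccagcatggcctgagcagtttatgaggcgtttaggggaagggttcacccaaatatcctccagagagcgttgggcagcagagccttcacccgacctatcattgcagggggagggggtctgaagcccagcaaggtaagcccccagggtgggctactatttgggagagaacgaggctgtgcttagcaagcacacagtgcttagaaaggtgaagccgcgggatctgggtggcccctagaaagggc
Hoxb4: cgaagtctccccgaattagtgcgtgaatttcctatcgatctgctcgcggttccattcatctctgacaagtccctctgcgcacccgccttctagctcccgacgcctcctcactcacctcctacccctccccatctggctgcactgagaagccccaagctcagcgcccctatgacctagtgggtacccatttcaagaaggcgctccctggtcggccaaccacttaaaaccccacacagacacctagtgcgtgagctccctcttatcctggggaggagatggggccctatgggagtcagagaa
Hoxa9: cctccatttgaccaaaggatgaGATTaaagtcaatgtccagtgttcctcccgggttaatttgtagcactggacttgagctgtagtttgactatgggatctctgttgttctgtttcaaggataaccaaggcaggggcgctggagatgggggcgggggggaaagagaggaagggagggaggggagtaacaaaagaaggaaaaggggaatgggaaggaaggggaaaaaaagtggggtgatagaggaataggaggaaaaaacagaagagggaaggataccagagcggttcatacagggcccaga
Pbx2: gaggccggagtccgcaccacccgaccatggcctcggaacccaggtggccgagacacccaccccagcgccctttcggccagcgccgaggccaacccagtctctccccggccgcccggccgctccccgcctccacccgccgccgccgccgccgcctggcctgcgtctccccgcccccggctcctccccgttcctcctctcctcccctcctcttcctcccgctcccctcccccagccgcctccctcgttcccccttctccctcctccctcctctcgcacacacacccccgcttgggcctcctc

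Windows were at hand for 7 of the 9 members, with 2 starts for Hoxa10 and hence 8 windows in all. The 4 letters AATC occurred on either strand in 5 of the 8, and in 73.1% of 32851 promoter windows of the same length. Meis1 held 1 match, which began 15 bases after its start, and Hoxa7 and Hoxa9 held 1 match each, at positions -224 and -228 from the start. The windows of Hoxa10 held 2 and 5 matches, and those of Hoxa5, Hoxb4 and Pbx2 held 0. A match is only a run of letters, and a window of this size says nothing about binding elsewhere.

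The libraries of HSCs held 50781007 (WT) and 41690708 (KO) counts on genes, and those of CD41low CD9low HSCs 12732079 (WT) and 19123185 (KO), so that 3 counts corresponded to between 0.0591 and 0.2356 CPM, the usual scaling of counts to the library total. The HSC markers fixed for this report, Kit, Slamf1, Procr and the member Hoxb5 among them, were detected in all 4 libraries (10 of 10 genes). Their levels were not equal between the populations. In the fit to all 4 libraries described below, 3 were higher and 2 lower in CD41low CD9low HSCs, where 8.24% and 12.6% of genes were. Procr had a fold of 2.896 and Slamf1, the gene of CD150, one of 0.4472. The summed level of 8 megakaryocyte markers was 1477 and 1731 CPM in WT and KO HSCs and 479.5 and 494.3 CPM in WT and KO CD41low CD9low HSCs, where Gp6 was at 0 in both and Gp1bb at 0 in the WT library. The CD41 and CD9 genes, Itga2b and Cd9, are on that list and are what the second population was sorted on. The 7 granulocyte markers summed to 362.1, 475.6, 941.0 and 203.9 CPM and 6 erythroid markers to 55.65, 48.26, 104.5 and 14.17 CPM in the order WT HSCs, KO HSCs, WT and KO CD41low CD9low HSCs, with Car1 at 0 in the last. Within these sums the genes differed in direction. From WT HSCs to WT CD41low CD9low HSCs, Hbb-bs went from 2.087 to 79.25 CPM, and Hba-a1 and Alas2 were higher as well. Klf1, Epor and Car1 were lower there. Mpo (174.1 and 121.0 CPM) and Ctsg were lower in the same comparison, and the other granulocyte markers were higher. B cell and T cell markers summed to at most 1.674 and 0.3151 CPM in any library, and 4 monocyte or macrophage markers to between 9.256 and 24.19 CPM. The part of these other cells in the results was not tested. Gfi1b itself had 9256 counts in WT and 49910 in KO HSCs, and 611 in WT and 9741 in KO CD41low CD9low HSCs. The whole-gene count of Gfi1b was therefore higher in the libraries labelled KO, and it does not separate the deleted exons from the others, so that it does not check the deletion. The study itself reported the deletion in megakaryocytes and HSCs, from a lack of expression of the floxed exons. Its paralog Gfi1 had 567, 4394, 413 and 2643 counts in the same order.

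All 9 members, of which the Hox genes had been chosen as expressed in HSCs, were expressed in all 4 libraries. Meis1 was the most abundant by a wide margin. Levels of different genes were compared only per length, as CPM per kilobase of annotated exon (RPKM). Meis1, the TALE cofactor that joins Hox and Pbx proteins, had an RPKM of 65.8 in WT HSCs, 74.76 in KO HSCs, 57.85 in WT and 63.5 in KO CD41low CD9low HSCs. It was thus in the top few percent of genes in every library, from the 94.9th to the 97.3rd percentile of genes with at least 10 counts. Its mean RPKM over the 4 libraries was 65.48 ± 7.03 (SD over 4 libraries of different groups), 2.49 times that of the next member, and its range did not overlap that of any other.

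Pbx2, a broadly expressed Pbx protein, came second in RPKM with 21.7 in WT HSCs, 20.72 in KO HSCs, 31.16 in WT and 31.73 in KO CD41low CD9low HSCs. Hoxa9, the posterior Hoxa gene best known from leukemia, had the highest level of the Hox members, with an RPKM of 12.22, 16.89, 21.82 and 23.56 in the same order of libraries. The ranges of Pbx2 and Hoxa9 overlapped, so that their order is not separated by the spread over libraries. Hoxa7, its neighbour in the cluster, had an RPKM of 9.298, 14.5, 12.94 and 14.86, and Hoxb4, which expands HSCs when it is overexpressed, 7.575, 12.6, 10.44 and 12.15. Hoxa10, the next posterior gene, had 8.509, 9.008, 12.13 and 12.83, and Hoxa5, which lies 3′ of these genes in the cluster, 8.068, 8.127, 9.248 and 11.14. From Pbx2 down to Hoxa5 each member's range overlapped that of the next.

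The lowest members in RPKM were Pbx3, a Pbx protein that partners Hoxa9 in leukemia, and Hoxb5, which marks long-term HSCs in reporter mice. Pbx3 had an RPKM of 4.687 in WT HSCs, 5.442 in KO HSCs, 2.764 in WT and 2.371 in KO CD41low CD9low HSCs. Hoxb5 had 1.746, 1.911, 1.776 and 2.065, which is the smallest spread of all 9 in absolute terms (mean 1.874 ± 0.146, SD over 4 libraries). The ranges of Hoxa5, Pbx3 and Hoxb5 did not overlap, with mean levels 2.4 and 2.04 times apart. In percentiles of expressed genes, Hoxb5 stood between the 19.7th and the 28.9th in all libraries.

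**Figure D1:**
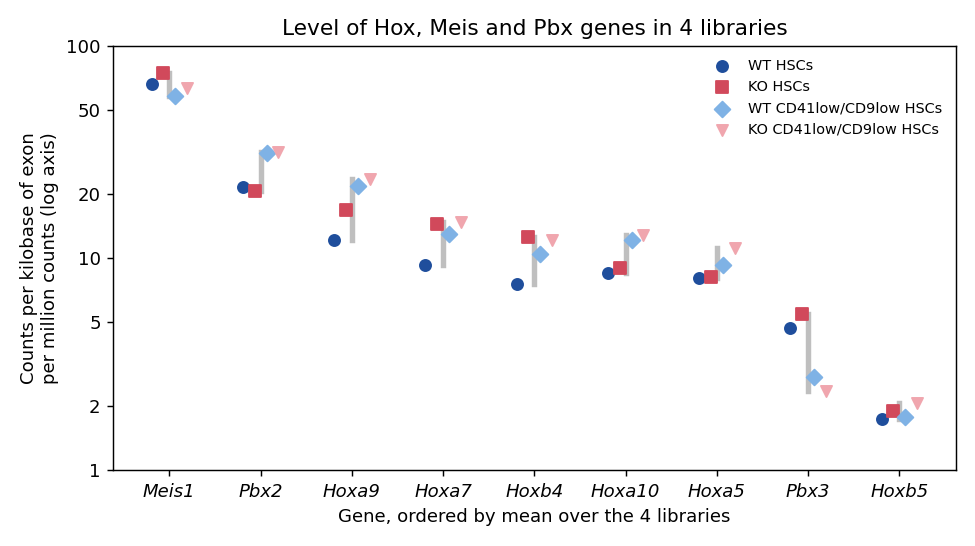
RPKM (log axis) of the 9 genes in each of the 4 libraries, with a grey bar from the lowest to the highest library. Meis1 lies at 57.85 to 74.76, apart from all others, and Hoxb5 at 1.746 to 2.065 lies lowest.

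Among the 39 annotated protein-coding Hox genes, expression was confined in these libraries almost wholly to the Hoxa and Hoxb clusters. The Hoxa cluster took 77.3% to 79.0% of all counts on Hox genes and the Hoxb cluster 20.6% to 22.3%, in each of the 4 libraries. The Hoxc cluster took at most 0.948%, and the Hoxd cluster had 0 counts in 3 libraries and 1 count in KO HSCs, within the 3 counts that a count of 0 allows (Hoxd4 was not listed for the HSC libraries). The most 5′ genes of the Hoxa and Hoxb clusters were at or close to 0 as well: Hoxa13 and Hoxb13 had 0 counts in every library, and Hoxa11 had 10 counts in WT HSCs and 0 elsewhere. The 6 Hox members lie inside the stretch that was expressed, which follows from their choice as Hox genes expressed in HSCs and is no result.

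**Figure D2:**
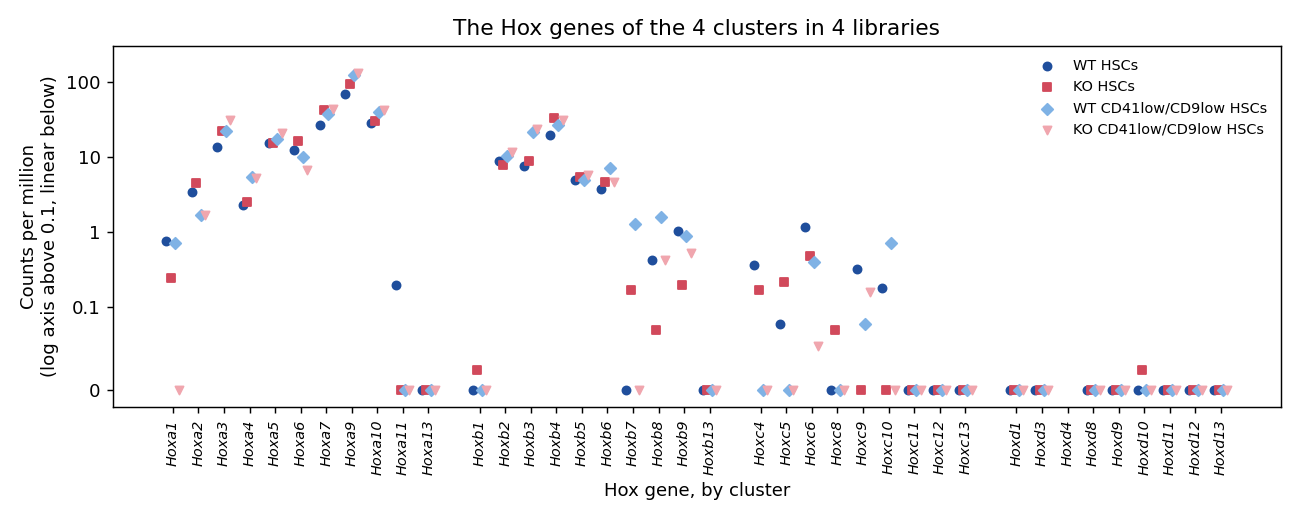
CPM of each Hox gene, ordered by cluster, in the 4 libraries (axis linear below 0.1 and logarithmic above). Hoxa2 to Hoxa10 and Hoxb2 to Hoxb6 lie above 1 in all libraries, whereas the Hoxd genes lie at or near 0.

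The order of the libraries was similar for some of the Hox members and depended on the scaling. Scaled by total counts, the WT HSC library had the lowest value of the 4 for all 6 Hox members, as it did for 20.6% of 14940 genes, and the KO CD41low CD9low library the highest for 5 of the 6, as for 25.6% of genes. With median-of-ratios size factors over the 4 libraries the counts were 5 of 6 and 4 of 6, against 19.2% and 24.5% of genes. Both held together for 5 of 6 with total counts and 3 of 6 with size factors, against 9.06% and 8.43% of genes. Some of these differences were smaller than the counting error, as for Hoxa5 with 15.14 CPM in WT and 15.26 CPM in KO HSCs. The Hox members are neighbours in 2 clusters and were not independent of each other. Other Hox genes did not all follow this order. Hoxa6, which is not a member, had 12.15 and 16.0 CPM in WT and KO HSCs. In WT and KO CD41low CD9low HSCs it had 9.975 and 6.641 CPM.

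Comparing KO with WT asks how expression differs without Gfi1b, which the study examined for its link to Wnt/β-catenin signaling. In KO HSCs, Hoxb4 and Hoxa7 lay above the cutoff of 1.5 that the study used for the ratio between normalized counts of KO and WT, and none of the 9 members lay below its cutoff of 0.6. Across 15910 genes, 14.1% lay above 1.5 and 10.3% below 0.6, so that 2 of 9 members above the cutoff was close to what the share of all genes gives. Of the 20 Hox genes with a ratio in HSCs, members included, 3 lay above 1.5 and 7 below 0.6. The third above was Hoxa3, at 1.651. The 7 below, Hoxb9 (0.19) and Hoxc6 (0.43) among them, were not members and had at most 58 counts in a library. Hoxb4 had 987 counts (19.44 CPM) in WT and 1348 counts (32.33 CPM) in KO HSCs, which gave a KO/WT value of 1.686 (1.552 to 1.832). Hoxa7 had 1358 counts (26.74 CPM) in WT and 1738 counts (41.69 CPM) in KO HSCs, or 1.58-fold (1.471 to 1.697). With 1 library per group these ratios have no replicate check, and the 95% intervals in brackets (exact, Clopper-Pearson) cover counting error only.

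Hoxa9 followed in HSCs with 3462 counts (68.18 CPM) in WT and 3929 counts (94.24 CPM) in KO, and its value of 1.401 (1.338 to 1.467) stayed below the cutoff. The ratios of the remaining Hox members lay close to 1: 1.021 for Hoxa5 (0.9175 to 1.135), 1.073 for Hoxa10 (0.9929 to 1.159) and 1.109 for Hoxb5 (0.9212 to 1.335). Their counting intervals all included 1. Hoxa9 and Hoxa7 thus stood above Hoxa10 and Hoxa5, which lie on either side of them in the same cluster.

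Meis1 had 35192 counts (693.0 CPM) in WT and 32827 counts (787.4 CPM) in KO HSCs. Its value in KO over WT was 1.151 (1.134 to 1.169), with a narrow interval at this depth and well short of the cutoff. It was at the 67.6th percentile of the ratios of all genes. Pbx3 had a ratio of 1.177 (1.092 to 1.267), from 1454 counts in WT and 1386 in KO, and Pbx2 one of 0.9674 (0.923 to 1.014), from 4011 and 3144. The median log2 KO/WT ratio of the 9 members in HSCs was 0.20, beside -0.001 over all genes.

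In these HSC libraries the KO/WT ratio moved with exon length. The median log2 ratio was -0.16 among genes with up to 2358 bp of exons and 0.15 among genes with more than 6441 bp, whereas it was 0 and 0.03 in CD41low CD9low HSCs. Meis1 has the longest exons of the members (10532 bp), and centring the ratios on genes of similar length moved its HSC ratio to 1.011, while Hoxb4 and Hoxa7 went to 1.806 and 1.733 and Hoxa9 to 1.348. The share of reads assigned to no gene also differed, at 44.3% of uniquely aligned reads in WT and 51.2% in KO HSCs against 38.1% and 37.4% in the other pair. Its part in the ratios was not tested.

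In CD41low CD9low HSCs, none of the 9 members passed either cutoff, where 13.5% of 14844 genes lay above 1.5 and 12.0% below 0.6. The largest KO/WT ratio was that of Hoxa5, with 221 counts (17.36 CPM) in WT and 400 counts (20.92 CPM) in KO, a ratio of 1.207 (95% interval 1.021 to 1.429). Hoxb4 had 341 counts (26.78 CPM) in WT and 596 counts (31.17 CPM) in KO, a ratio of 1.165 (1.018 to 1.335). Hoxa7, with 474 counts (37.23 CPM) and 817 counts (42.72 CPM), had a ratio of 1.149 (1.025 to 1.289). The members past the cutoff in HSCs were thus at 1.165 or less here.

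In the same pair Hoxa9 was at 1.081 (1.015 to 1.153), Hoxa10 at 1.059 (0.946 to 1.186) and Hoxb5 at 1.164 (0.8464 to 1.613). Hoxb5 rested on 63 counts in WT and 110 in KO, which is why its interval is the widest of the 9. Meis1 had 7758 counts (609.3 CPM) in WT and 12790 counts (668.8 CPM) in KO, a ratio of 1.099 (1.068 to 1.131). Pbx2 was at 1.02 (0.954 to 1.091), and Pbx3 at 0.8589 (0.7162 to 1.031) was the only member below 1. The median log2 ratio of the members was 0.14, beside 0.002 over all genes.

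For 5 members, Hoxb4, Hoxa7, Hoxa9, Meis1 and Pbx3, the counting intervals of the KO/WT ratio in HSCs and in CD41low CD9low HSCs did not overlap, and the HSC ratio was the higher in each. For the remaining 4, Hoxa5, Hoxa10, Hoxb5 and Pbx2, they overlapped. These intervals cover counting error only. The share of all genes with such a gap was not determined, so the number is no result about the members. Centred on exon length, the HSC ratio of Meis1 was the lower, at 1.011 against 1.086. The difference between the populations in the KO/WT ratio could not be tested, since a fit with that term leaves no residual degree of freedom. Depth and the granulocyte markers differed between the 2 libraries of the CD41low CD9low pair, as given above.

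**Figure D3:**
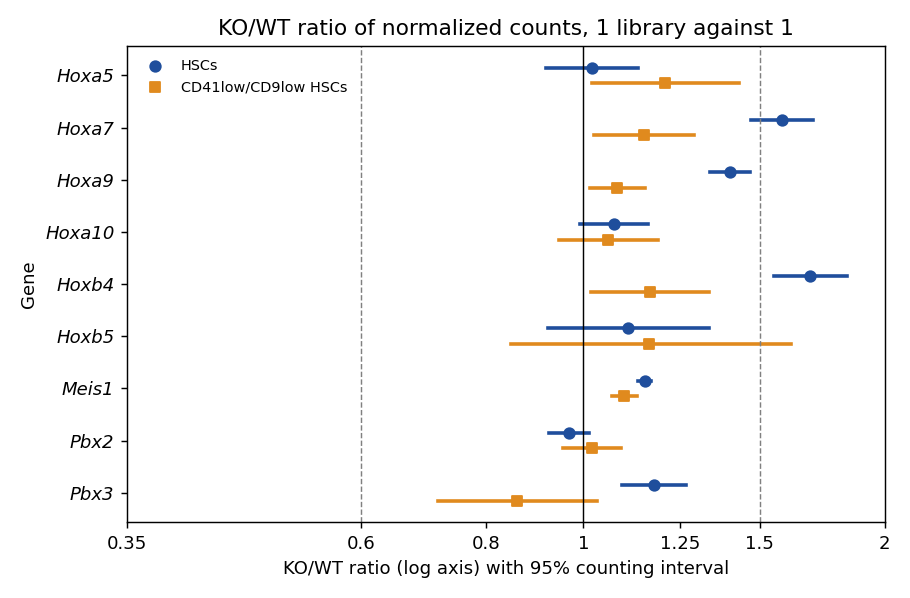
KO/WT ratio of normalized counts (log axis) of each gene in HSCs and in CD41low CD9low HSCs, with 95% counting intervals and dashed lines at 0.6 and 1.5. Only Hoxa7 and Hoxb4 in HSCs, at 1.58 and 1.686, lie past a cutoff.

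A genotype effect over both populations was tested in 1 model of all 4 libraries that also held a population term (edgeR's quasi-likelihood test, Benjamini-Hochberg adjustment over 14940 genes), which has 1 residual degree of freedom and borrows its spread from all genes. None of the 9 members passed an adjusted p of 0.05, where 0.843% of genes did (80 higher and 46 lower), and DESeq2 called 0 of the 9 as well, where it called 0.75% of genes. At an unadjusted p under 0.05 there were 2 members, against 10% of genes. Hoxb4 had a log2 KO/WT of 0.49 (SE 0.225), a fold of 1.405 with a 95% interval of 1.01 to 1.95 (edgeR, adjusted p = 0.48). Hoxa7 had a log2 KO/WT of 0.43 (SE 0.195), a fold of 1.349 (1.01 to 1.8, edgeR adjusted p = 0.473). Both were higher in KO in 2 of 2 populations, and neither was past the threshold after adjustment. By the methods, both populations of a genotype were sorted from its pooled marrow, so that the libraries of a genotype may share mice and are not separate animals in this fit.

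For Meis1 the fit gave a log2 KO/WT of 0.17 (SE 0.134), which is a fold of 1.123 with a 95% interval of 0.923 to 1.37 (edgeR, adjusted p = 0.79). With the exon-length trend of each library as an offset, chosen after the data were seen, its log2 KO/WT was 0.07 (edgeR, adjusted p = 0.955). A doubling of Meis1 lies outside the interval of 0.923 to 1.37 and a change of 1.3-fold lies within it. The SE and intervals of this fit are approximate, as they were derived from its test statistic. With 1 pool per genotype they do not cover the spread between animals, so that such a change is not excluded for other mice. Hoxa9 had a fold of 1.23 (0.977 to 1.55, edgeR adjusted p = 0.573). The remaining members had folds between 0.9916 for Pbx2 and 1.134 for Hoxb5, and the interval of Hoxb5 ran from 0.568 to 2.26, so that a change of up to that size was not detectable for it.

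Tgif1, a repressor of the TALE class that is not among the 9 members, had ratios of 1.75 in HSCs and 1.276 in CD41low CD9low HSCs and did not pass in the fit (edgeR adjusted p = 0.168).

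**Figure D4:**
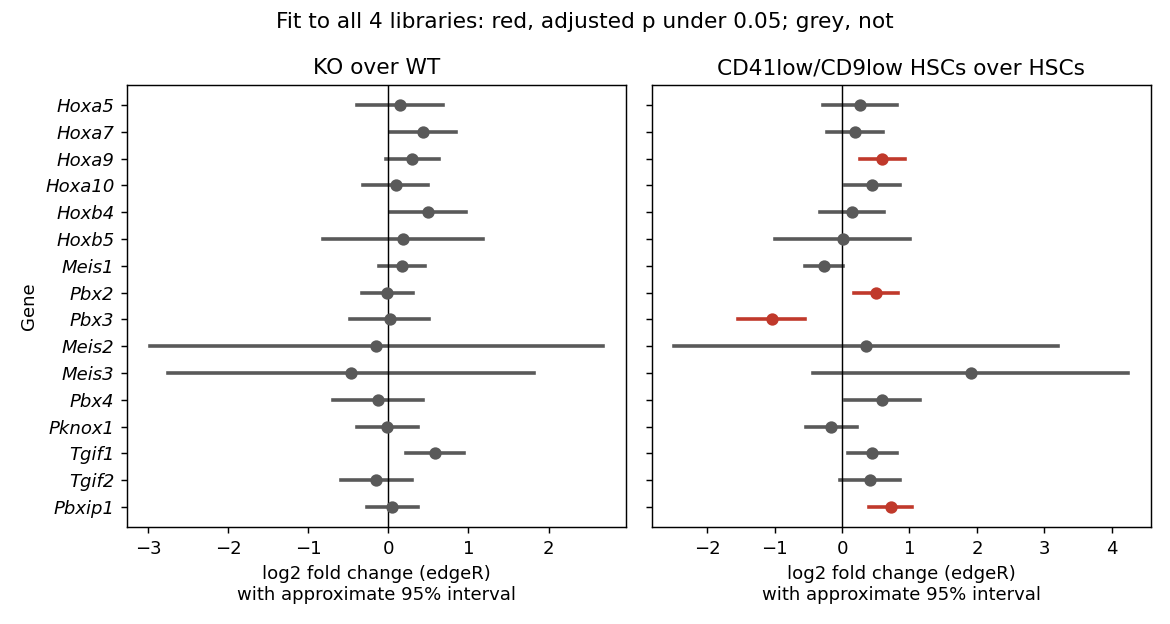
log2 fold change with its approximate 95% interval for the 9 members and 7 other genes, which are 6 of the TALE class and Pbxip1, a gene of a Pbx-interacting protein, from the edgeR fit to all 4 libraries, for KO over WT (left) and CD41low CD9low HSCs over HSCs (right); red marks an adjusted p under 0.05. On the left none of the genes plotted is red, and on the right Hoxa9, Pbx2, Pbx3 and Pbxip1 are.

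The second comparison set CD41low CD9low HSCs against HSCs, in the same fit with genotype as covariate. Hoxa9 and Pbx2 rose, Pbx3 fell, and 6 of the 9 members did not pass, so that 3 of 9 were called where 20.8% of 14940 genes were (8.24% higher and 12.6% lower). DESeq2 called the same 3 members, and 17.6% of genes. The HSC libraries listed 38293 genes and the CD41low CD9low libraries 41214. From this it is inferred that the populations were counted on different annotation releases. They also differ in depth, and their biology cannot be told apart from those differences or from a difference in library preparation. Fewer cells of a type and less RNA per cell cannot be told apart either in sorted bulk RNA.

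Hoxa9 had 68.18 CPM in WT and 94.24 CPM in KO HSCs, and 121.7 CPM in WT and 131.5 CPM in KO CD41low CD9low HSCs. The values of the populations did not overlap, and the fold between them was 1.512 with a 95% interval of 1.2 to 1.9 (log2 0.60, edgeR adjusted p = 0.0125, DESeq2 adjusted p = 0.0151). Within WT the ratio was 1.681 (1.582 to 1.785), above the cutoff of 1.5 that 18.6% of genes passed, and within KO it was 1.312 (1.248 to 1.38). Of the 17 Hox genes tested, Hoxa9 and Hoxb3 rose and 0 fell. Hoxb3, which is not a member, went up by 1.40 on the log2 scale (edgeR adjusted p = 0.00168).

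Pbx2 had 78.99 and 75.41 CPM in WT and KO HSCs and 113.4 and 115.5 CPM in WT and KO CD41low CD9low HSCs. The libraries of a population were close to each other and the populations apart, with a fold of 1.422 (95% interval 1.14 to 1.78, edgeR adjusted p = 0.0255, DESeq2 adjusted p = 0.0403). Neither ratio, 1.351 within WT and 1.441 within KO, reached 1.5. Within KO 0 of the 9 members did, where 18.4% of genes lay above it, although scaling by total counts put Pbx2 there at 1.532.

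Pbx3 had 28.63 and 33.24 CPM in WT and KO HSCs and 16.89 and 14.49 CPM in WT and KO CD41low CD9low HSCs. Its fold was 0.4855 (95% interval 0.343 to 0.687, edgeR adjusted p = 0.00482, DESeq2 adjusted p = 0.0118). It was the 1 member below the cutoff of 0.6 within WT, at 0.5551 (0.4788 to 0.641), and within KO, at 0.4099 (0.359 to 0.4667), as were 20.2% and 21.1% of genes. Pbx2 and Pbx3 thus moved in opposite directions between the populations. The Pbx-interacting protein gene Pbxip1 rose by 0.72 (edgeR adjusted p = 0.00296). The summed level of the megakaryocyte markers was lower in the same libraries, and 7 of its 8 genes fell in this fit, where 12.6% of all genes did. Itga2b and Cd9, on whose proteins the population was sorted, are among the 7. The part of that difference in the values of Pbx3 was not tested.

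Meis1 had 693.0 and 787.4 CPM in WT and KO HSCs and 609.3 and 668.8 CPM in WT and KO CD41low CD9low HSCs. The ranges overlapped, and its fold of 0.8285 (95% interval 0.681 to 1.01) did not pass (edgeR adjusted p = 0.172). With ratios centred on genes of similar exon length the direction was not stable, at 0.9554 within WT and 1.053 within KO in place of 0.8275 and 0.7992. Hoxa10 had a fold of 1.366 (1.03 to 1.81) and did not pass (edgeR adjusted p = 0.114). Hoxa5, Hoxa7, Hoxb4 and Hoxb5 had folds between 1.005 and 1.203, each with an interval that included 1. Within WT the ratios of Hoxa7 and Hoxb4 were 1.31 and 1.297, and within KO they were 0.9642 (0.8862 to 1.048) and 0.9069 (0.8222 to 0.9994). The value of Hoxa7 within KO turned to 1.025 with total-count scaling.

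**Figure D5:**
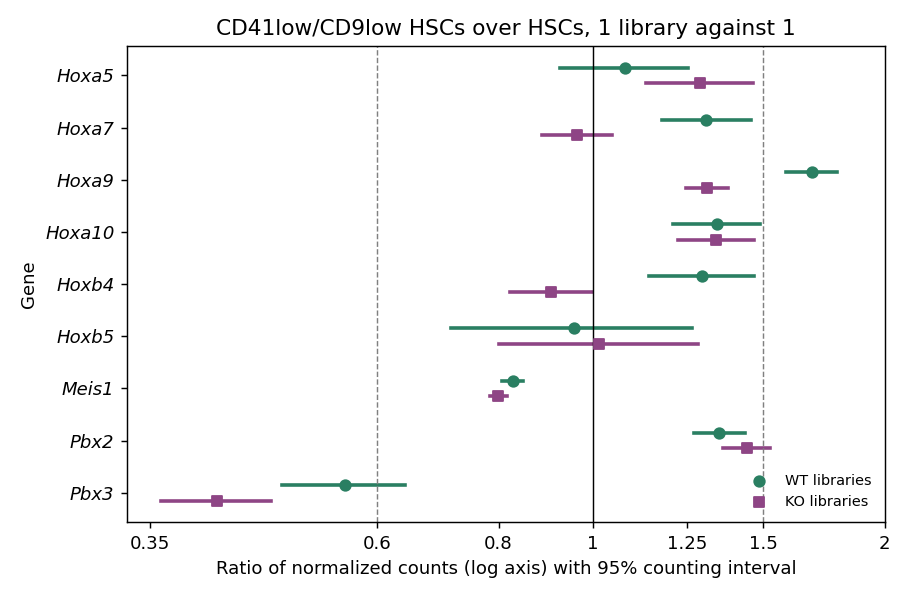
Ratio of normalized counts in CD41low CD9low HSCs over HSCs (log axis) of each gene, within WT and within KO, with 95% counting intervals and dashed lines at 0.6 and 1.5. Pbx3 lies below 0.6 in both, at 0.5551 and 0.4099, and Hoxa9 within WT lies above 1.5, at 1.681.

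The genes around the members were described by lists. Of 16 genes of MLL complexes and other activators of Hox genes, such as Kmt2a, Men1 and Dot1l, 13 were tested. For genotype 0 passed, where 0.843% of all genes did. Kmt2a (MLL1), the histone H3 lysine methyltransferase that maintains Hox expression, had KO/WT ratios of 1.834 in HSCs and 1.093 in CD41low CD9low HSCs, and Ash1l, a further histone methyltransferase, was past the cutoff in HSCs at 1.541. Both have long exons (16670 and 14838 bp), and centred on genes of similar length their HSC ratios were 1.463 and 1.27, below the cutoff. Men1, which tethers Kmt2a to chromatin, was past it in CD41low CD9low HSCs at 1.56. Cdx1, Cdx2 and Cdx4, upstream regulators of Hox genes in the embryo, had 0 counts in all 4 libraries. Between populations 1 of the 13 genes passed, where 20.8% of all genes did. Npm1, the nucleolar protein gene whose mutation in leukemia comes with high HOX expression, fell by 0.60 on the log2 scale (edgeR adjusted p = 0.00596).

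Of 16 Polycomb genes, which silence Hox clusters, 0 passed for genotype, where 0.843% of all genes did. Between populations 3 rose and 5 fell, where 8.24% of all genes rose and 12.6% fell. Those that fell were Ezh2, Suz12 and Jarid2 of the PRC2 complex and Bmi1 and Rnf2 of the PRC1 complex, by 0.56 (Bmi1) to 1.33 (Jarid2) on the log2 scale, and those that rose were Ring1, Cbx7 and Cbx8 of PRC1, at log2 values of 0.71 (Cbx8) to 1.08 (Cbx7). The edgeR adjusted p ranged from 1.98e-05 for Jarid2 to 0.0461 for Cbx8, whose call was lost with the exon-length offset (edgeR adjusted p = 0.0527). With that offset Ezh1 of PRC2 was gained among those that rose (log2 0.42, edgeR adjusted p = 0.0459, against 0.2 without it). The median log2 difference of the list was 0.05, beside -0.04 over all genes tested.

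Of 17 genes described as targets of Hoxa9 and Meis1, 1 passed for genotype, where 0.843% of all genes did: Cdk6, a cell cycle kinase, with a log2 KO/WT of 0.70 (edgeR adjusted p = 0.0297). Between populations 8 rose and 5 fell, where 8.24% of all genes rose and 12.6% fell. Flt3, a cytokine receptor of multipotent progenitors, rose by 1.98 and Sox4 by 1.09 on the log2 scale (edgeR adjusted p = 4.14e-05 and 5.17e-05), while Mef2c fell by 1.49 and Cdk6 by 1.40 (edgeR adjusted p = 8.7e-06 and 5.89e-06). The list's median log2 difference between populations was 0.37, beside -0.04 over all genes tested, and its median log2 KO/WT was -0.19, beside 0.01. With the exon-length offset Hlf passed for genotype as well (log2 -0.54, edgeR adjusted p = 0.0427). Camk2d then passed between populations (log2 0.44, edgeR adjusted p = 0.0439).

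Reads of overlapping genes could enter or leave the counts of 5 members, and the strand setting of the counting is not given in the sources used here. The largest shared stretch in proportion was that of Hoxa7, 20.38% of whose exon bases overlap the antisense gene Hoxaas3, which had 48, 42, 48 and 11 counts in WT HSCs, KO HSCs, WT and KO CD41low CD9low HSCs. Meis1 shares 896 bp with the antisense gene Gm16140 (544, 301, 174 and 134 counts) and Hoxb5 100 bp with Hoxb5os (69, 37, 52 and 11 counts). Pbx2 shares 227 bp with Gpsm3 on the same strand, and the exons of Hoxa9 overlap Mir196b, which had 0 counts in all libraries. Hoxaas3 and Hoxb5os were the lowest in KO CD41low CD9low HSCs, in contrast to Hoxa7 and Hoxb5 themselves.

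For each member the gene with the most similar pattern over the 4 libraries was taken among 11385 genes, by the distance between centred log2 normalized counts. These were Fbxo4 for Hoxa5 (distance 0.0135), Prrc2b for Hoxa7 (0.0528), Ahdc1 for Hoxa9 (0.0606), Arhgap25 for Hoxa10 (0.0145) and Plekhg1 for Hoxb4 (0.0739). For Hoxb5 it was Sugp2 (0.0199), for Meis1 Arel1 (0.00961), for Pbx2 Maz (0.0202) and for Pbx3 Alms1 (0.00926). With 4 libraries such a match is a description only, and no member was nearest to another.

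The members lie on 4 chromosomes in GRCm38 (GENCODE M21). Hoxa5 (ENSMUSG00000038253, 52201754 to 52204587), Hoxa7 (ENSMUSG00000038236, 52214491 to 52221854), Hoxa9 (ENSMUSG00000038227, 52223100 to 52231089) and Hoxa10 (ENSMUSG00000000938, 52231197 to 52240854) follow each other on the reverse strand of chromosome 6. Hoxb5 (ENSMUSG00000038700, 96303336 to 96306121) and Hoxb4 (ENSMUSG00000038692, 96318267 to 96321638) are neighbours on the forward strand of chromosome 11, where Meis1 (ENSMUSG00000020160, 18879817 to 19018985) lies on the reverse strand. Pbx2 (ENSMUSG00000034673) runs from 34591266 to 34597400 on the forward strand of chromosome 17 and Pbx3 (ENSMUSG00000038718) from 34171457 to 34373142 on the reverse strand of chromosome 2. Counts are per gene, so that isoforms, of which Pbx3 has 10 annotated and Meis1 9, were not separated.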

How the data were processed

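The authors sequenced poly(A) RNA libraries (TruSeq Stranded mRNA kit), aligned the reads to mm10 (GRCm38) with TopHat2 2.0.10 and counted them on Ensembl genes with HTSeq. The deposited values are these raw counts per gene, 1 library per group. The HTSeq version, strand setting and annotation release are not given in the sources used here. Lines for reads assigned to no gene (37.4% to 51.2% of uniquely aligned reads were without feature) were left out.

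Ratios within a pair used median-of-ratios size factors and genes that reached 10 counts in 1 or both libraries, and were called above 1.5 or below 0.6, the cutoffs of the study. Intervals are exact (Clopper-Pearson, 95%) and cover counting error only. The fit to all 4 libraries used edgeR 4.0.16 (TMM, genes that reached 10 counts in 2 or more libraries) and, as an alternative, DESeq2 1.42.0, in R 4.3.3, after a check on simulated counts. Names and exon lengths came from GENCODE M21, and promoters from RefSeq. Named beside the 9 members were, of each list, up to 6 genes past the cutoffs, up to 4 with the highest level and those past an adjusted p of 0.05 in the fit, of which a selection is printed, the genes whose exons overlap a member and the nearest gene of each member. Hoxa11, Hoxa13, Hoxb13, Hoxd4, Gp6 and the Cdx genes were named after their values were seen. Some listed genes are not reported here. The members and the lists were chosen with earlier results of these data known. The alternatives were other scalings, filters, a pseudocount of 1, another gene length and a correction for exon length. Ratios had no replicates, so no library could be left out.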

Additional observations from a re-analysis of the deposited data

Results flagged for a closer look

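Among the Hox genes, the noncoding RNAs of their clusters and the TALE genes described here, 4 genes were found, none of them a member, for which the KO/WT ratio lay on opposite sides of 1 in the populations, with both counting intervals apart from 1. Hoxa6, which lies between Hoxa5 and Hoxa7, stood at 1.33 in HSCs and at 0.667 in CD41low CD9low HSCs. Hoxb6, next to Hoxb5, had 1.23 and 0.652 in the same order. The noncoding RNA Hoxb3os had 0.741 and 1.64, and the TALE gene Pknox1 had 1.14 and 0.861. These differences were not tested, since each ratio compares 1 library with 1. Other lists, which were not part of this count, also held such genes, Flt3 and Mpo among them. Of the Hox, noncoding RNA and TALE lists, in that order, 20, 5 and 10 genes had a ratio in HSCs. In CD41low CD9low HSCs 16, 5 and 10 had one. The share of all genes that meets the same rule was not determined, so the 4 genes are no result about these lists.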

How the results depend on the processing

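Among the 9 members, no value under any other setting tried put a called member below its threshold or a new member above it, except that total-count scaling put Pbx2 above 1.5 between populations within KO (1 member in place of 0). Hoxa9, Pbx2 and Pbx3 kept their calls between populations in DESeq2, with RLE scaling, under both other filters and with the exon-length offset (adjusted p 0.00198, 0.0192 and 0.00605 in edgeR). Numbers over all genes moved with the filter. At a minimum of 50 counts, 1431 genes lay above and 792 below the cutoffs in KO HSCs, 982 and 702 in KO CD41low CD9low HSCs, 1841 and 1921 between populations within WT, and 1838 above within KO. With no filter and a pseudocount of 1 the numbers were 4303 and 2589 in KO HSCs, 3085 above in KO CD41low CD9low HSCs, and 5974 below between populations within KO. Centring on exon length left 1830 genes below the cutoff between populations within WT and 2146 within KO. In the fit for genotype, 50 genes were higher and 19 lower at a minimum of 50 counts, 254 and 166 without a filter, 30 were lower in DESeq2 and 72 with the exon-length offset, which was chosen after the data were seen. The cause was not tested beyond the number of genes each filter admits. On the longest transcript in place of merged exons, Hoxa9 came second in level (32.21 RPKM), ahead of Pbx2.

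No paired analysis was possible because the labels give no replicate numbers and each group has 1 library. Depth limits Hoxb5 most, with 63 counts in WT CD41low CD9low HSCs.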
